A study of Mus musculus with 24 samples.

Results

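The 8 genes described here encode the phagocyte NADPH oxidase, the Rac GTPases that switch it on, its assembly chaperone and the related oxidase gene Nox1. They are Cybb, Cyba, Cybc1, Ncf1, Ncf4, Rac1, Rac2 and Nox1, chosen by name, and were found by matching the Ensembl identifiers of the count files to the GENCODE M21 annotation. All 8 were present among 43629 gene identifiers, and all 8 passed the filter on low counts that left 12765 genes for testing.

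On GRCm38, in the GENCODE M21 annotation, Cybb (ENSMUSG00000015340) spans chrX:9435252-9487771 and Nox1 (ENSMUSG00000031257) chrX:134086421-134221956, both on the minus strand. Ncf1 (ENSMUSG00000015950, chr5:134220053-134229625) and Rac1 (ENSMUSG00000001847, chr5:143503634-143528036) share a chromosome and the minus strand. Ncf4 (ENSMUSG00000071715, chr15:78244801-78262580, plus strand) and Rac2 (ENSMUSG00000033220, chr15:78559167-78572783, minus strand) lie near each other. Cyba (ENSMUSG00000006519) spans chr8:122424776-122432930 and Cybc1 (ENSMUSG00000039294) chr11:121222588-121229322, both on the minus strand. The files hold 1 count per gene, so isoforms are not told apart.

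RNA was sequenced from bone marrow-derived macrophages of wild-type C57BL/6 mice, which are cells grown from bone marrow over 7 days with CSF-1 (20 ng/mL), a cytokine that macrophages need. The tested groups were LPS, a bacterial cell wall component, for 1 h and 18 h, LPS with 50 ng/mL IFNg for 1 h and 18 h, and 20 ng/mL IL-4 for 1 h and 18 h, and the cells against which they were set were left unstimulated for 1 h and 18 h. Every group kept CSF-1 during stimulation, and each held 3 libraries. LPS was used at 20 or 100 ng/mL, and which library had which dose is not stated. Nor is it stated whether the 3 libraries of a group came from separate mice or cultures, so p-values here reflect only variation among libraries that may be technical replicates.

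The phagocyte oxidase moves electrons from NADPH across a membrane to oxygen and so makes superoxide, which phagocytes use to kill microbes and as a signal. The products of Cybb and Cyba form its membrane core, which depends on the chaperone encoded by Cybc1 to be made in stable form. At rest the organiser subunit from Ncf1 and the adaptor subunit from Ncf4 stay in the cytosol, and the enzyme works only once they and a Rac GTPase have joined the core. Loss of the core, of the organiser or of the chaperone causes chronic granulomatous disease in people. Nox1 encodes a relative of the Cybb product that is best known from the colon epithelium.

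RefSeq promoter sequences on GRCm38.p6 were at hand for Cybb, Cyba, Ncf1, Nox1 and Cybc1. Below are the 250 bases before the start for the 3 of these genes that hold a match to an interferon or NF-kappaB motif, shown because LPS and IFNg act through the factors named after those motifs. Capitals mark the matches. The motifs, searched on both strands, were the GAS element TTCNNNGAA, the ISRE core (GAAA, any 2 bases, GAAA), the PU.1 core GAGGAA and the NF-kappaB site (GGGA, any 2 bases, TTCC).
Cybb promoter, chrX:9469325-9469574, minus strand: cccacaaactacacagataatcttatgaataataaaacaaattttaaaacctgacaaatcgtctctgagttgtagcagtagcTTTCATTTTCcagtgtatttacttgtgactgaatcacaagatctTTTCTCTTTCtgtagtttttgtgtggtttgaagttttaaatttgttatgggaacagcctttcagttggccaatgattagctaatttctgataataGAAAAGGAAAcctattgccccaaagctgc
Ncf1 promoter, chr5:134229626-134229875, minus strand: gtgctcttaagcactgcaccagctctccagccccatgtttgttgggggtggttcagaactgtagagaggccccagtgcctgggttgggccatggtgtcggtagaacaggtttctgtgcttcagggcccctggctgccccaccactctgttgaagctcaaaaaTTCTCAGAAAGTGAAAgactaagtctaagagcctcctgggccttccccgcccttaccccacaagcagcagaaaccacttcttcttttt
Cybc1 promoter, chr11:121229310-121229559, minus strand: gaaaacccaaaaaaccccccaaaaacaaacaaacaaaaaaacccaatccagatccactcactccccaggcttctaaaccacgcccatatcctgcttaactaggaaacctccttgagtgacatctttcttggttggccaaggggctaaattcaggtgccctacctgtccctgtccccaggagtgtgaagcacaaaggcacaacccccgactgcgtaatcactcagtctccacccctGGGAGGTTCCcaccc
The Cybb stretch held 3 ISRE core matches, with left ends at -168, -124 and -29 from the start, the first and second of them on the opposite strand. The Ncf1 stretch held 1 GAS match at -88, which reads alike on both strands, and 1 ISRE core match at -82 that overlaps it. The Cybc1 stretch held 1 NF-kappaB match at -15, and a second Cybc1 start had 1 PU.1 match. Nox1 had 1 PU.1 match and Cyba had none of the 4 motifs. The RefSeq starts of Cybb, Nox1 and Cybc1 lie inside the longer GENCODE spans. Among 32851 promoters of the same length, 7.02% held a GAS match, 2.98% an ISRE core match, 23.3% a PU.1 match and 1.21% an NF-kappaB match. These are matches of letters, and binding was not measured.

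Library totals ran from 4181890 to 8122945 reads assigned to genes, with 15450 to 19108 genes holding a read. Levels are given as CPM, read counts relative to library size with TMM scaling, and changes as log2 fold changes with their standard error from edgeR's quasi-likelihood test. Adjusted p-values are Benjamini-Hochberg over all 12765 genes, and a gene is called when this is below 0.05. Of the stimulus markers, Nos2, the inducible nitric oxide synthase, averaged 5892 CPM in the LPS+IFNg 18 h libraries and 0.259 CPM in the unstimulated ones. The IL-4 marker Arg1 averaged 619 CPM in the IL-4 18 h libraries and 0.465 CPM in the unstimulated ones. Among 8 such markers, 4 rose and 0 fell with IL-4 at 18 h, beside 39.2% of all genes called. With LPS at 18 h 5 rose and 2 fell, beside 63.1%, and with LPS+IFNg 5 rose and 2 fell, beside 72.2%. Only Il1b, Nos2, Cxcl9 and Gbp2 of the list are LPS or IFNg markers, so some IL-4 marker also rose with LPS and with LPS+IFNg. All 7 macrophage markers had reads in every library, with a summed level of 10167 to 24923 CPM, whereas the T cell list summed to at most 0.203 CPM, the B cell list to 3.23, the dendritic cell list to 5.61, the mast cell list to 1.80 and the fibroblast list to 7.00.

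Neutrophils carry the same oxidase, so their markers bear on these genes. A list of 10 neutrophil markers summed to 146 to 202 CPM in the LPS 18 h libraries, 35.7 to 60.2 in LPS+IFNg 18 h, 155 to 203 in IL-4 18 h and 140 to 205 in unstimulated 18 h, so that the LPS and IL-4 libraries overlapped the unstimulated ones and the LPS+IFNg libraries lay below them. S100a8 and S100a9, which macrophages can express too, averaged 56.0 and 59.7 CPM in LPS 18 h and 25.8 and 52.6 in unstimulated 18 h. The other 8 markers summed to 59.0 to 61.8 CPM in the LPS 18 h libraries, 10.1 to 14.8 in LPS+IFNg 18 h, 92.4 to 102 in IL-4 18 h and 76.0 to 98.1 in unstimulated 18 h. Mpo and Elane had no read in LPS+IFNg 18 h. The part of neutrophils in the results was not tested. In bulk RNA, fewer cells of a type and less RNA per cell cannot be told apart.

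A pair of 18 h libraries stood apart from their own groups. LPS 18 h replicate 2 differed from the other 2 replicates by a chi-square per gene of 9.25 and 11.4, where those differed from each other by 2.42. IL-4 18 h replicate 2 differed by 7.41 and 4.56, against 3.26 between the others. Replicate pairs of the other 6 groups gave 1.62 to 3.59. In both of these libraries Cybb was the lowest of its group, and Cyba, Cybc1, Ncf4, Rac1, Rac2 and Nox1 were the highest. Folds without these libraries are given beside the 18 h results.

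At 18 h of LPS, 6 of the 8 genes rose and 1 fell, where 63.1% of all tested genes were called in either direction, 31.8% higher and 31.3% lower. Their median log2 fold change was 1.10, against 0.01 over all tested genes. With LPS+IFNg at 18 h, 6 rose and 0 fell, where 72.2% of all genes were called, 36.1% higher and 36.1% lower, with a median of 1.03 against 0.00. With IL-4 at 18 h, 3 rose and 3 fell, where 39.2% of all genes were called, 19% higher and 20.1% lower, with a median of -0.04 against -0.01.

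At 1 h, LPS raised 4 genes and lowered 1, beside 22.2% of all genes called (10.8% higher, 11.4% lower), and LPS+IFNg raised 3 and lowered 1, beside 29.4% (14.7% higher, 14.7% lower). IL-4 at 1 h called 0 of the 8, beside 6.49% of all genes (3.22% higher, 3.27% lower), while 1 had an unadjusted p below 0.05 in the edgeR test, and limma-voom and DESeq2 also called 0. Between 1 h and 18 h without stimulus only Cybb was called, and it fell, beside 12% of all genes (4% higher, 8.01% lower). With most genes of these cells called at 18 h of LPS or LPS+IFNg, a count of members called there says little about the oxidase, and the sizes of the changes follow gene by gene.

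The difference between the 18 h and the 1 h response was tested as well. For LPS, 5 of the 8 genes responded more at 18 h and 2 less, beside 54.2% of all genes (27% higher, 27.2% lower). For LPS+IFNg, 6 responded more and 2 less, beside 64% (31.8% higher, 32.2% lower). For IL-4, 2 differed upward and 3 downward, beside 21.5% (10.1% higher, 11.4% lower).

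**Figure D1:**
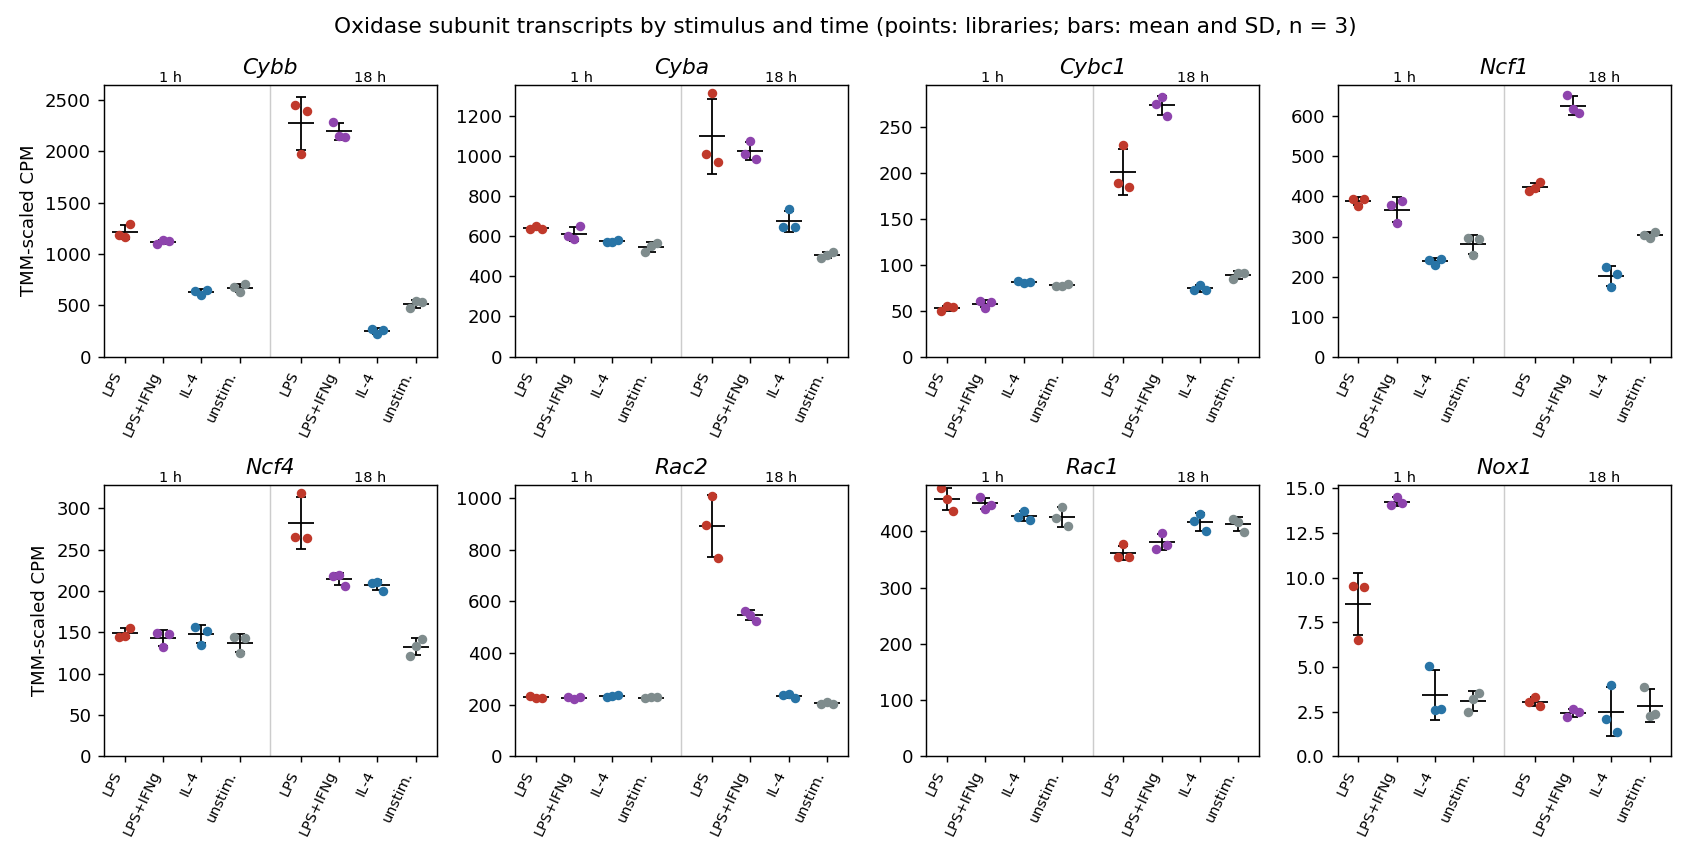
CPM (y axis, from 0) of each gene in each library, by stimulus at 1 h and 18 h; points are libraries and bars are the mean and SD of 3. Cybb, Cyba, Rac2 and Cybc1 stand highest in the 18 h LPS and LPS+IFNg libraries, Ncf4 in LPS 18 h, Ncf1 in LPS+IFNg 18 h, and Nox1 in the 1 h LPS and LPS+IFNg libraries.

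Cybb, which encodes the catalytic chain that carries the electrons, changed most among the genes of the classical complex. It had 2449, 1974 and 2393 CPM in the LPS 18 h libraries, against 471, 540 and 529 CPM in the unstimulated 18 h libraries. LPS+IFNg 18 h libraries had 2288, 2154 and 2139 CPM. Every library of these stimulated groups thus lay above every unstimulated one, and the 2 stimulated groups overlapped. The log2 fold change was 2.15 ± 0.08 for LPS (adjusted p = 1.8e-19) and 2.10 ± 0.08 for LPS+IFNg (adjusted p = 1.8e-19).

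IL-4 moved Cybb the other way. The IL-4 18 h libraries had 269, 218 and 261 CPM, all below the 471 to 540 CPM of the unstimulated libraries, for a log2 fold change of -1.04 ± 0.08 (adjusted p = 2.1e-11). Cybb had already risen after 1 h of LPS, to 1186, 1165 and 1293 CPM, against 678, 629 and 703 CPM in unstimulated 1 h libraries, a change of 0.86 ± 0.08 (adjusted p = 7.0e-10). After 1 h of LPS+IFNg it had 1095, 1134 and 1121 CPM, a change of 0.74 ± 0.08 (adjusted p = 1.1e-08). IL-4 at 1 h gave -0.09, with a 95% interval of -0.26 to 0.07.

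In order of level, Cybb averaged 2272 ± 260 CPM in LPS 18 h, 2194 ± 82.2 in LPS+IFNg 18 h, 1215 ± 68.8 in LPS 1 h, 1117 ± 19.8 in LPS+IFNg 1 h, 670 ± 37.3 in unstimulated 1 h, 629 ± 28.1 in IL-4 1 h, 513 ± 36.7 in unstimulated 18 h and 248.9 ± 27.3 in IL-4 18 h (SD, n = 3 each). Neighbours in this order that did not pass the test were LPS and LPS+IFNg at either time, and unstimulated and IL-4 at 1 h. The highest mean was 9.13 times the lowest, the widest range of the 8 genes. The unstimulated cells also differed with time, with a log2 change of -0.38 ± 0.08 at 18 h relative to 1 h (adjusted p = 0.0016).

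Cyba encodes the partner chain that holds the catalytic chain stable and docks the organiser. It had 1009, 1314 and 972 CPM in LPS 18 h libraries, against 493, 506 and 523 CPM in unstimulated ones, a log2 fold change of 1.11 ± 0.08 (adjusted p = 7.4e-13). In LPS+IFNg 18 h it had 1012, 1073 and 986 CPM, a change of 1.01 ± 0.08 (adjusted p = 3.9e-12). IL-4 18 h libraries had 645, 736 and 644 CPM, so that Cyba rose (0.41 ± 0.08, adjusted p = 1.7e-04) in the cells where Cybb fell.

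After 1 h, Cyba had 637, 652 and 634 CPM with LPS and 519, 551 and 567 CPM without, a log2 change of 0.23 ± 0.08 (adjusted p = 0.040). This call was lost without any one of LPS 1 h replicates 1, 2 and 3 or unstimulated 1 h replicates 1 and 2 (0.19 to 0.24). The order of its means ran from 1098 ± 188 CPM in LPS 18 h and 1024 ± 44.8 in LPS+IFNg 18 h, which were not told apart, to 675 ± 52.7 in IL-4 18 h, and from there to 507 ± 14.6 in unstimulated 18 h no neighbours passed the test.

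The ratio of Cybb to Cyba reads was lower with IL-4 and higher with LPS than in unstimulated cells at 18 h. Within a library, the Cybb to Cyba read ratio was 0.417, 0.296 and 0.405 in IL-4 18 h, against 0.955, 1.07 and 1.01 in unstimulated 18 h. It was 2.43, 1.503 and 2.46 in LPS 18 h and 2.26, 2.01 and 2.17 in LPS+IFNg 18 h. No IL-4 library overlapped an unstimulated one, and no LPS library overlapped either. LPS 18 h replicate 2 gave the 1.503, the lowest of the LPS groups. The ratio was not tested.

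**Figure D2:**
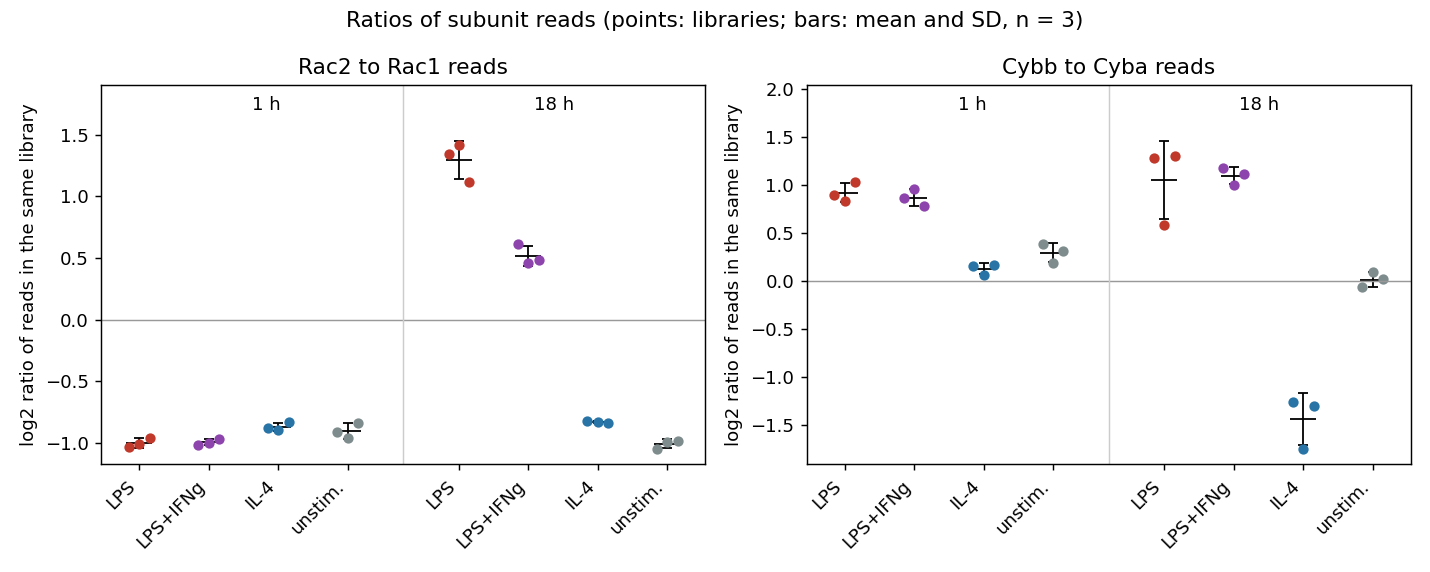
log2 ratio of reads of 2 genes in the same library (y axis) by group; points are libraries and bars are the mean and SD of 3. Rac2 to Rac1 is above 0 only in the LPS and LPS+IFNg libraries at 18 h, and Cybb to Cyba is lowest in the IL-4 libraries at 18 h.

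Cybc1, the chaperone gene, was the one gene that LPS lowered first and raised later. At 1 h it had 49.2, 54.6 and 53.5 CPM with LPS, against 77.1, 76.8 and 78.5 CPM without, a log2 change of -0.56 ± 0.08 (adjusted p = 4.8e-06). LPS+IFNg 1 h libraries had 60.03, 53.2 and 59.2 CPM, a change of -0.43 ± 0.08 (adjusted p = 1.1e-04). At 18 h it had 188, 230 and 185 CPM with LPS, against 84.0, 91.0 and 90.8 CPM in unstimulated libraries, a change of 1.18 ± 0.08 (adjusted p = 2.4e-14).

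LPS+IFNg took Cybc1 further at 18 h, to 275, 283 and 262 CPM, with no library overlapping the LPS ones, and the change over unstimulated cells was 1.62 ± 0.07 (adjusted p = 6.3e-18). IL-4 lowered it slightly, to 72.3, 78.2 and 71.9 CPM (-0.26 ± 0.08, adjusted p = 0.0091). The change of direction was itself past the test: the LPS response at 18 h exceeded that at 1 h by 1.74 ± 0.11 log2 units (adjusted p = 9.5e-14). Between LPS+IFNg 18 h at 273 ± 10.6 CPM and LPS 1 h at 52.5 ± 2.82, unstimulated 18 h (88.6 ± 3.97), IL-4 1 h (81.1 ± 1.44), unstimulated 1 h (77.5 ± 0.87) and IL-4 18 h (74.1 ± 3.53) formed a run of neighbours that did not pass the test.

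**Figure D3:**
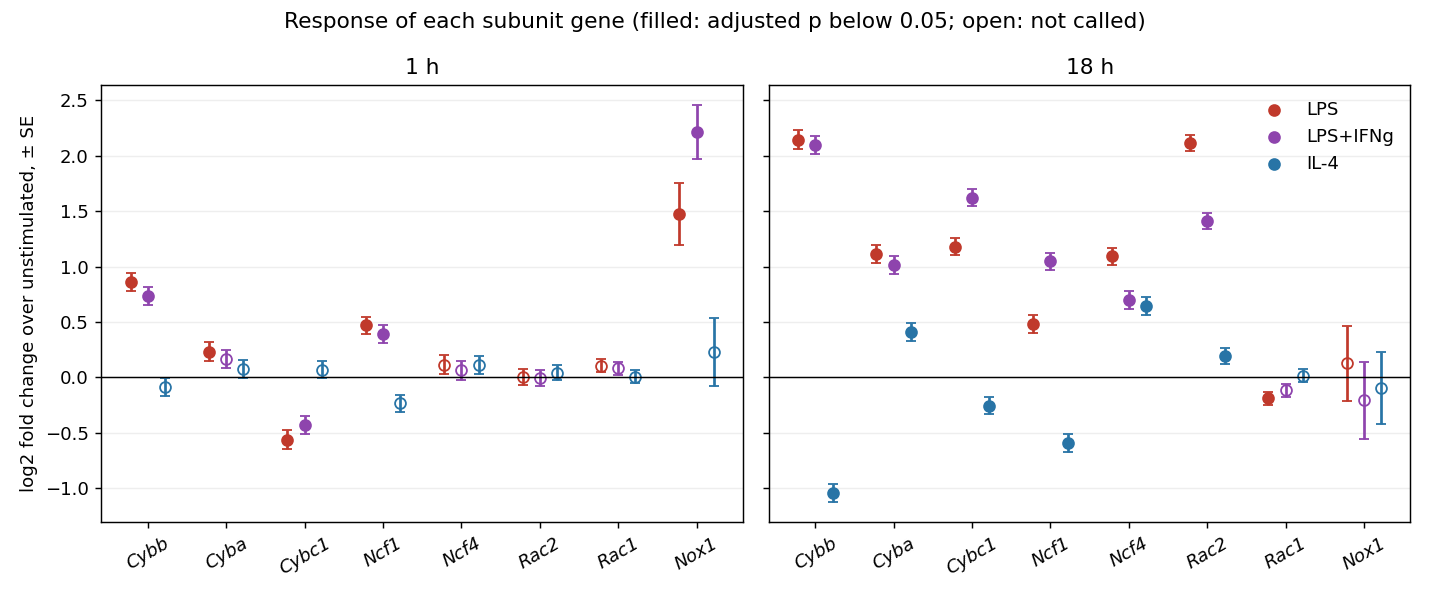
log2 fold change over unstimulated cells of the same time (y axis, bars are the standard error) of each gene at 1 h and 18 h for LPS, LPS+IFNg and IL-4; filled points were called and open points were not. Cybc1 is below 0 at 1 h and above 0 at 18 h with LPS, and Cybb and Ncf1 are the genes furthest below 0 with IL-4 at 18 h.

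Ncf1, which encodes the organiser that carries the complex to the membrane once phosphorylated, was the gene most raised by adding IFNg at 18 h. It had 655, 619 and 608 CPM in LPS+IFNg 18 h, against 304, 296 and 311 CPM in unstimulated cells, a log2 fold change of 1.05 ± 0.08 (adjusted p = 5.9e-13). LPS alone gave 414, 420 and 436 CPM, a change of 0.48 ± 0.08 (adjusted p = 4.0e-06). The 3 groups did not overlap. In IL-4 18 h libraries it had 224, 173 and 207 CPM, lower than every unstimulated library (-0.59 ± 0.08, adjusted p = 5.1e-07).

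At 1 h Ncf1 had 394, 376 and 395 CPM with LPS, against 295, 253 and 293 CPM without, a change of 0.47 ± 0.08 (adjusted p = 2.6e-05). LPS+IFNg at 1 h averaged 367 ± 30.3 CPM, a change of 0.39 ± 0.08 (adjusted p = 2.1e-04). With IL-4 at 1 h it had 242, 229 and 244 CPM, and the change of -0.23 ± 0.08 missed the threshold (adjusted p = 0.079). Libraries of the same number deviated together in that comparison, and with the replicate number as a block Ncf1 was called lower at -0.23 (adjusted p = 0.018). It was also called without unstimulated 1 h replicate 2 (-0.30, adjusted p = 0.024).

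Ncf1 shares 408 bases, 11.1% of its exon bases, with Gtf2ird2 on the other strand. Gtf2ird2 was also the gene with the profile nearest to that of Ncf1 over the 8 groups. Its reads were 0.143 to 0.192 of the Ncf1 reads over all 24 libraries. The kit marks strand, but whether the counting used it is not given in the sources used here, and the part of shared reads in either gene was not tested.

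Ncf4, whose product binds a membrane lipid and steadies the cytosolic subunits, rose with all 3 stimuli at 18 h. It had 265, 319 and 264 CPM in LPS 18 h, against 122, 133 and 142 CPM in unstimulated cells, a log2 fold change of 1.09 ± 0.08 (adjusted p = 8.5e-13). LPS+IFNg gave 218, 219 and 206 CPM (0.70 ± 0.08, adjusted p = 8.6e-09). IL-4 gave 210, 211 and 200 CPM (0.64 ± 0.08, adjusted p = 1.8e-07), a level not told apart from that of LPS+IFNg. No stimulated library at 18 h overlapped an unstimulated one.

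At 1 h none of the 3 stimuli moved Ncf4 past the test, with log2 changes of 0.11 for LPS, 0.06 for LPS+IFNg and 0.11 for IL-4, whose 95% intervals lay within -0.11 to 0.28. The adaptor and the organiser thus differed in their IL-4 response at 18 h, where Ncf4 rose and Ncf1 fell. Ncf4 shared no exon bases or 50-base stretches with another gene.

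Rac2, the Rac GTPase of blood cells, rose at 18 h of LPS by nearly the same log2 amount as Cybb. It had 897, 1007 and 768 CPM with LPS, against 204, 210 and 202 CPM in unstimulated libraries, a log2 fold change of 2.12 ± 0.07 (adjusted p = 6.7e-21). LPS+IFNg gave 564, 546 and 525 CPM, lower than every LPS library and higher than every unstimulated one (1.41 ± 0.07, adjusted p = 5.3e-17). At 1 h the means of the 4 groups lay between 226 and 234 CPM, and the changes were 0.00 with LPS, -0.01 with LPS+IFNg and 0.04 with IL-4, with 95% intervals within -0.15 to 0.19.

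With IL-4 at 18 h Rac2 had 236, 242 and 224 CPM, and its change of 0.19 ± 0.07 passed the test (adjusted p = 0.033). That call was lost without any one of IL-4 18 h replicates 1 and 2 or unstimulated 18 h replicates 1, 2 and 3 (0.16 to 0.20), with no filter (0.20) and with library-size scaling (0.13). Below LPS+IFNg 18 h, the other 6 groups formed a run from 234 ± 8.98 CPM in IL-4 18 h to 205 ± 4.24 in unstimulated 18 h in which no neighbours passed the test.

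Rac1, the Rac GTPase found in most cells, varied least, by 1.26-fold between its highest and lowest group means. It had 354, 376 and 354 CPM in LPS 18 h, against 423, 417 and 398 CPM in unstimulated libraries, a log2 change of -0.19 ± 0.06 (adjusted p = 0.0058). LPS+IFNg gave 369, 397 and 376 CPM (-0.12 ± 0.06, adjusted p = 0.074), which limma-voom, DESeq2 and a fit of the compared groups alone called lower. IL-4 gave a change of 0.01, with a 95% interval of -0.11 to 0.13. No neighbours in the order of its 8 means passed the test.

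Of the Rac1 exon bases, 2309 (51.4%) overlap exons of Daglb on the other strand. Daglb averaged 58.9 ± 0.63 CPM in LPS 18 h, 23.9 ± 1.29 in LPS+IFNg 18 h, 346 ± 10.4 in IL-4 18 h and 178 ± 14.8 in unstimulated 18 h. In the same groups Rac1 averaged 362, 380, 416 and 413 CPM. The part of Daglb in the Rac1 level was not tested. Rac1 and Rac2 shared no 50-base stretch.

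The Rac2 to Rac1 read ratio, which needs no scaling between libraries, was 2.53, 2.68 and 2.17 in LPS 18 h and 1.53, 1.38 and 1.40 in LPS+IFNg 18 h. It was 0.564, 0.561 and 0.560 in IL-4 18 h and 0.483, 0.503 and 0.506 in unstimulated 18 h. The 6 libraries with LPS exceeded the 6 without by 1.83 on the log2 scale, with no overlap (exact two-sided permutation test, p = 0.0022, the smallest this design allows). Per kilobase of exons the ratio averaged 3.56 ± 0.38 in LPS 18 h and 0.721 ± 0.018 in unstimulated 18 h. On this measure Rac2 stood above Rac1 with LPS and below it without. Of the Rac1 exon bases counted, 51.4% overlap Daglb, whose part in the ratio was not tested. At 1 h the 6 libraries with LPS were lower by a small amount, -0.11 on the log2 scale (exact two-sided permutation test, p = 0.0043), at ratios of 0.487 to 0.513, against 0.513 to 0.562 without LPS. Each side of these tests pooled libraries of different groups (LPS with LPS+IFNg, IL-4 with unstimulated), and single libraries were permuted. The p-values thus do not measure variation between groups, and libraries of a group may be technical replicates.

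Nox1 was called with LPS and LPS+IFNg at 1 h and with none of the stimuli at 18 h. It had 14.1, 14.5 and 14.2 CPM with LPS+IFNg, against 2.49, 3.23 and 3.57 CPM in unstimulated libraries, a log2 fold change of 2.22 ± 0.25 (adjusted p = 1.4e-08). LPS gave 9.56, 6.51 and 9.51 CPM (1.48 ± 0.28, adjusted p = 1.3e-04). No library of either group overlapped an unstimulated one. These are low counts, 9 to 79 reads in a library, and 12.1% of the exon bases overlap Cstf2 on the other strand, which averaged 54.7 CPM in LPS 1 h, 63.5 in LPS+IFNg 1 h and 48.2 in unstimulated 1 h. Its part in the Nox1 count was not tested.

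At 18 h Nox1 averaged 3.06 ± 0.25 CPM with LPS, 2.43 ± 0.24 with LPS+IFNg, 2.49 ± 1.36 with IL-4 and 2.83 ± 0.93 unstimulated, and none of the 3 changes passed the test. The 95% interval of the LPS change ran from -0.57 to 0.82, so a change of moderate size was not detectable at this depth. The fall of the LPS+IFNg response by 18 h was itself called, at -2.43 ± 0.44 log2 units (adjusted p = 1.9e-05). Of 8 further genes of the oxidase family, including Nox3, Nox4, Noxa1, Duox1 and Duox2, 0 had enough reads to be tested. Noxo1, which encodes the organiser that partners the Nox1 enzyme, had the most, with 145 reads over all libraries and at most 13 in a library, and its group means ran from 0.366 to 1.49 CPM.

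IFNg was then compared on top of LPS. At 1 h only Nox1 was called, as higher (0.74 ± 0.22, adjusted p = 0.021), beside 11.8% of all genes called (6.52% higher, 5.25% lower). This call was lost with DESeq2 (0.73), without LPS 1 h replicate 2 (0.58) and without any one replicate of LPS+IFNg 1 h (0.73 to 0.75). At 18 h, 2 of the 8 genes were higher and 2 lower, beside 47.4% of all genes called (24% higher, 23.4% lower).

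The genes raised by added IFNg at 18 h were Ncf1, by 0.57 ± 0.08 (adjusted p = 4.4e-07), and Cybc1, by 0.44 ± 0.07 (adjusted p = 6.3e-06). The genes lowered were Rac2, at -0.71 ± 0.07 (adjusted p = 6.3e-10), and Ncf4, at -0.40 ± 0.08 (adjusted p = 1.3e-04). In each of these the LPS+IFNg libraries did not overlap the LPS libraries. The core genes were not moved past the test: Cybb gave -0.05, with a 95% interval of -0.21 to 0.11, and Cyba gave -0.10, with an interval of -0.27 to 0.06. The effect of IFNg differed between 18 h and 1 h for Ncf1 (0.65 ± 0.11, adjusted p = 2.5e-05) and Rac2 (-0.70 ± 0.10, adjusted p = 1.8e-06), beside 35% of all genes (16.5% higher, 18.5% lower); in all, 2 of the 8 differed upward and 3 downward.

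**Figure D4:**
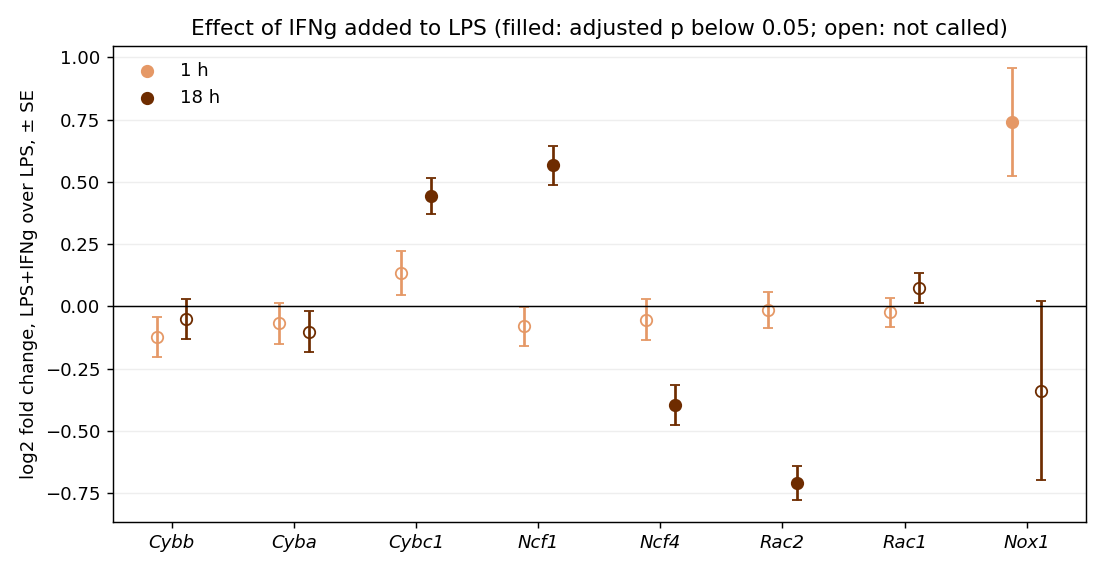
log2 fold change of LPS+IFNg over LPS (y axis, bars are the standard error) of each gene at 1 h and 18 h; filled points were called and open points were not. At 18 h Ncf1 and Cybc1 lie above 0, Rac2 and Ncf4 below it, and Cybb, Cyba and Rac1 near it.

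Leaving out both libraries that stood apart kept every call among the 8 genes for LPS, for IL-4 and for added IFNg at 18 h. The LPS 18 h changes then were 2.24 for Cybb, 0.97 for Cyba, 0.49 for Ncf1, 1.00 for Ncf4, -0.22 for Rac1, 2.02 for Rac2 and 1.08 for Cybc1. The IL-4 18 h changes were -0.96 for Cybb, 0.35 for Cyba, -0.49 for Ncf1, 0.63 for Ncf4, 0.17 for Rac2 and -0.30 for Cybc1. Added IFNg gave 0.56 for Ncf1, 0.55 for Cybc1, -0.61 for Rac2 and -0.30 for Ncf4, and of the genes not called -0.14 for Cybb and 0.05 for Cyba.

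All changes are relative to TMM scaling. Scaling by library size alone moved the median of all genes to -0.41 for LPS 18 h, -0.54 for LPS+IFNg 18 h, -0.19 for LPS 1 h, -0.25 for LPS+IFNg 1 h and -0.12 for IFNg added at 18 h. On that scale LPS 18 h gave 1.73 for Cybb, 0.69 for Cyba, 0.06 for Ncf1 (not called), 0.67 for Ncf4, -0.61 for Rac1, 1.69 for Rac2 and 0.76 for Cybc1. LPS+IFNg 18 h gave 1.56 for Cybb, 0.48 for Cyba, 0.51 for Ncf1, 0.16 for Ncf4, -0.65 for Rac1 (now called), 0.87 for Rac2 and 1.09 for Cybc1. At 1 h the calls of Cyba with LPS (0.04) and Ncf1 with LPS+IFNg (0.13) were lost, and Rac2 (-0.18 with LPS, -0.27 with LPS+IFNg), Rac1 (-0.18 with LPS+IFNg) and Ncf4 (-0.20 with LPS+IFNg) were called lower, as was Cyba with IFNg added at 18 h (-0.21). No called change turned its sign.

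Levels of different genes were compared per kilobase of exons, counting exon bases that overlap genes on the other strand, as in Rac1. Cyba stood highest in every group, at 1057 ± 181 CPM per kilobase in LPS 18 h and 488 ± 14.1 in unstimulated 18 h. Cybb was second in the LPS and LPS+IFNg groups, at 391 ± 44.7 in LPS 18 h and 378 ± 14.2 in LPS+IFNg 18 h, but had 42.9 ± 4.70 in IL-4 18 h, below Ncf4 (103 ± 2.90), Rac1 (92.6 ± 3.38), Rac2 (75.4 ± 2.89) and Ncf1 (55.0 ± 7.12). Cybc1 stayed between 12.4 and 64.8 and Nox1 between 0.735 and 4.31, the lowest of the 8 in every group. Taking the principal transcript in place of all exons, Cybc1 ran from 21.7 to 113.

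**Figure D5:**
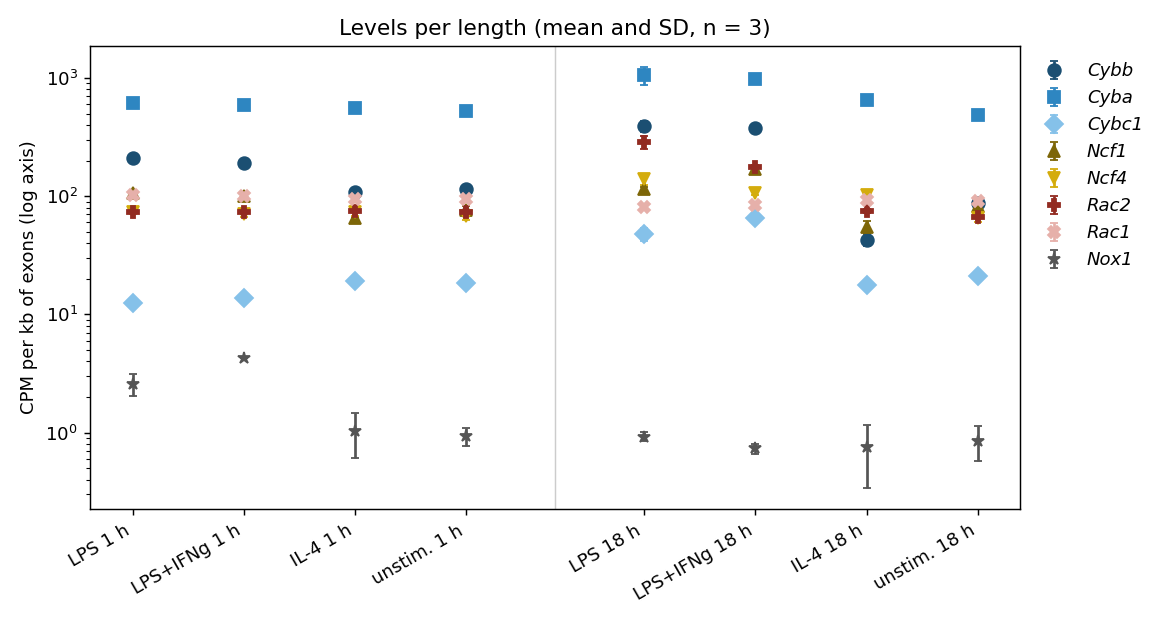
CPM per kilobase of exons (y axis, log scale) of each gene by group; markers are the mean and bars the SD of 3 libraries. Cyba is the highest and Nox1 the lowest marker in every group, and the Cybb marker falls to 42.9 in IL-4 18 h.

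Factors known to act on the Cybb promoter were counted next. Of 9 tested in a list of 12, 5 rose and 1 fell with LPS at 1 h, beside 22.2% of all genes called, with a median log2 change of 0.47 against 0.00 over all genes. With LPS+IFNg at 1 h 9 rose, beside 29.4% of all genes called (14.7% higher), with a median of 0.80 against 0.01. At 18 h 8 rose with LPS, beside 63.1% of all genes called (31.8% higher), with a median of 0.79 against 0.01. With LPS+IFNg at 18 h 9 rose, beside 72.2% called (36.1% higher), with a median of 1.35 against 0.00. Irf8, an interferon factor of the myeloid lineage, averaged 1325 ± 78.2 CPM in LPS+IFNg 1 h, 75.8 ± 0.998 in LPS 1 h and 109 ± 5.58 in unstimulated 1 h. Cebpb, a factor of myeloid genes, rose by 2.86 ± 0.11 with LPS at 18 h.

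With IL-4 at 18 h, 5 of these factors rose and 3 fell, beside 39.2% of all genes called, with a median of 0.17 against -0.01. Irf8 fell by 0.45 on the log2 scale (adjusted p = 1.4e-05). Adding IFNg to LPS at 18 h raised 8 of the 9, beside 47.4% of all genes called (24% higher), with Irf1 up by 3.41 ± 0.08 and Irf8 by 2.26 ± 0.07, in the comparison in which Cybb was not moved past the test.

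Regulators of the Rac switch went both ways. Of 12 exchange factors, inhibitors and GTPase-activating proteins, 5 rose and 4 fell with LPS at 18 h, near the 63.1% of all genes called, with a median of -0.02 against 0.01 over all genes. Prex1 and Vav1, exchange factors that load Rac with GTP, rose by 1.72 ± 0.09 and 1.39 ± 0.07, and Arhgap15, which switches Rac off, changed by -1.83 ± 0.17. With LPS+IFNg 4 rose and 4 fell, beside 72.2% of all genes called. With IL-4 4 rose and 4 fell, beside 39.2%, including Arhgap25, another gene that switches Rac off, at 0.91 ± 0.06, and Vav1 at -0.63 ± 0.07. At 1 h Arhgap25 was the 1 gene of the list called with LPS, beside 22.2% of all genes, at -1.34 ± 0.06.

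Among 14 tested kinases that act on the cytosolic subunits, 5 rose and 6 fell with LPS at 18 h, beside 63.1% of all genes called, with a median of -0.05 against 0.01. With LPS+IFNg 4 rose and 7 fell, beside 72.2%, with a median of -0.19 against 0.00, and with IL-4 2 rose and 2 fell, beside 39.2%, with a median of 0.06 against -0.01. Syk, which relays signals from phagocytic receptors, rose by 1.38 ± 0.07 with LPS and by the same amount with LPS+IFNg. Prkcd, a kinase that phosphorylates the organiser, rose by 1.42 ± 0.08 with IL-4. Pik3cg, a lipid kinase subunit, fell by 1.90 with LPS+IFNg and by 0.96 with IL-4.

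Of 8 membrane and lipid partners, 5 rose and 1 fell with LPS at 18 h, beside 63.1% of all genes called, with a median of 0.45 against 0.01. With LPS+IFNg 3 rose and 3 fell, beside 72.2%, with a median of -0.08 against 0.00, and with IL-4 3 rose and 1 fell, beside 39.2%, with a median of 0.21 against -0.01. Prdx6, whose lipase activity aids the oxidase, rose by 1.71 ± 0.12 with LPS and 2.39 ± 0.12 with LPS+IFNg. Hvcn1, the proton channel that balances the charge the oxidase moves, had 182 ± 4.65 CPM in IL-4 18 h and 81.6 ± 4.78 in unstimulated 18 h, a rise of 1.16 ± 0.08 (adjusted p = 3.2e-13), in the group where Cybb was lowest.

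The 8 listed NADPH-producing enzymes, not all of which are cytosolic, were also split. With LPS at 18 h 3 rose and 4 fell, beside 63.1% of all genes called, with a median of -0.19 against 0.01. With LPS+IFNg 3 rose and 4 fell, beside 72.2%, with a median of -0.52 against 0.00, and with IL-4 2 rose and 2 fell, beside 39.2%, with a median of 0.01 against -0.01. G6pdx, the entry enzyme of the pentose phosphate route, rose by 0.78 ± 0.06 with LPS, and Pgd, of the same route, by 1.52 ± 0.09 with LPS+IFNg. Idh2, the mitochondrial isocitrate dehydrogenase, had 9.12 ± 0.90 CPM in LPS+IFNg 18 h and 98.6 ± 4.82 in unstimulated 18 h, a log2 change of -3.42 ± 0.11.

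The genes with the most similar profiles were found by the root mean square difference of log2 CPM over the 8 group means, each profile centred on its own mean. The nearest to Cybb was Clec4d at 0.26, and Ift22 was nearest to Rac2 at 0.063, Dnaja1 to Cyba at 0.059 and Rhoa to Rac1 at 0.045. Cox5a was nearest to Ncf4 at 0.084, Ap3m2 to Cybc1 at 0.14 and Gtf2b to Nox1 at 0.20. Among the 8 genes themselves, Cyba and Ncf4 were nearest to each other at 0.15, and Cybb was 0.61 from Ncf1, the closest of the 8 to it.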

How the data were processed

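Polyadenylated RNA from 24 libraries (8 groups of stimulus and time, 3 each) had been sequenced with a stranded kit, per the labels' protocols. The authors deposited raw counts of reads per Ensembl gene for each library; the submitters' processing notes name STAR, featureCounts, DESeq2 and deepTools and the GRCm38 build, without versions or roles. The annotation, the strand setting and the treatment of reads that match several genes are not given in the sources used here, so genes that overlap a member are named beside it.

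From these counts, edgeR 4.0.16 in R 4.3.3 fitted all 24 libraries in one quasi-likelihood model with a term for group, after TMM scaling and a filter by group (minimum count 10) that left 12765 genes tested and 30864 not. The common biological coefficient of variation was 0.0736. Tests were two-sided, for 9 comparisons of groups and 4 differences between the responses at 18 h and 1 h. A simulation drew counts for all libraries from the unstimulated 18 h means, with a small set of genes changed in the LPS 18 h libraries. Over 12261 genes the test called 40 of 65 changed by 1.5-fold, 55 of 65 by 2-fold and 63 of 64 by 4-fold. Of its 168 calls, 10 were false. These rates do not cover a comparison in which most genes change, such as LPS at 18 h (63.1% of genes called). Of 43629 identifiers, 42462 matched GENCODE M21. Promoters are from RefSeq on GRCm38.p6. Of the 300 bases around the start, the 50 after it are not shown. The Rac2 to Rac1 read ratio was compared by an exact permutation test over libraries.

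Alternatives were median-of-ratios and library-size scaling, no filter, limma-voom (limma 3.58.1), DESeq2 1.42.0, the compared groups alone, a threshold of 0.01, a block for the replicate number, each library left out in turn and, chosen after seeing the data, the 2 set-apart libraries left out and the principal transcript's length. Libraries of the same number were taken as paired only where all their correlations of deviations from the group mean passed 0.1, which held for IL-4 at 1 h (0.133 to 0.231) and came from the data, since the labels do not say what a number shares. The 8 members are named whether called or not. Of each gene list up to 2 called genes with the largest rise and up to 2 with the largest fall were open to naming, with the 3 genes nearest in profile and the stimulus markers. The members, lists and tests were chosen with earlier results of these data known.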

Additional observations from a re-analysis of the deposited data

Results flagged for a closer look

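The response of a gene to the same stimulus was compared between 18 h and 1 h by the difference of the log2 fold changes, in edgeR's quasi-likelihood test with Benjamini-Hochberg adjustment, and the 25 differences past the threshold are given here. Comparisons at 1 time share their unstimulated libraries, so the differences of the stimuli are not independent of each other.

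For LPS, where 54.2% of all tested genes differed, the response at 18 h was above that at 1 h for Rac2 (2.11), Cybc1 (1.74), Cybb (1.29), Ncf4 (0.98) and Cyba (0.88). It was below for Nox1 (-1.35) and Rac1 (-0.29). The Nox1 difference lost its call without unstimulated 18 h replicate 1 (-1.05).

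For LPS+IFNg, where 64% of all tested genes differed, the 18 h response was above for Cybc1 (2.05), Rac2 (1.42), Cybb (1.36), Cyba (0.85), Ncf1 (0.66) and Ncf4 (0.63). It was below for Nox1 (-2.43) and Rac1 (-0.20). The Rac1 difference lost its call with no filter and without any one of 8 libraries (-0.20 to -0.17).

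For IL-4, where 21.5% of all tested genes differed, the 18 h response was above for Ncf4 (0.54) and Cyba (0.34) and below for Cybb (-0.95), Ncf1 (-0.36) and Cybc1 (-0.32). Cyba lost its call with library-size scaling (0.27) and without any one of 8 libraries (0.27 to 0.34). Cybc1 lost it with no filter (-0.32) and without any one of 9 libraries (-0.33 to -0.30). Ncf1 lost it without IL-4 18 h replicate 2 (-0.26), unstimulated 1 h replicate 2 (-0.29) or both set-apart libraries (-0.26).

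For IFNg added to LPS, where 35% of all tested genes differed, the effect at 18 h was above that at 1 h for Ncf1 (0.65) and Cybc1 (0.31). It was below for Nox1 (-1.08), Rac2 (-0.70) and Ncf4 (-0.34). Nox1 lost its call with DESeq2 (-1.06), with median-of-ratios scaling (-1.06), without both set-apart libraries (-1.02) and without any one of 10 libraries (-1.15 to -0.92). Cybc1 lost it with no filter (0.29), with the compared groups alone (0.32) and without any one of 7 libraries (0.25 to 0.30). Ncf4 did so without LPS 18 h replicate 2 (-0.25), LPS+IFNg 1 h replicate 1 (-0.31) or LPS+IFNg 18 h replicate 3 (-0.32). Its call was also lost without both set-apart libraries (-0.25).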

How the results depend on the processing

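No called change of the 8 genes turned its sign under any alternative run. The number of members called moved by over 1.5 times, or to or from 0, in these settings. For IL-4 at 1 h it was 1 with the replicate block and 0 without. With the block no other count of members moved this far. For IFNg added at 1 h it was 0 with DESeq2 and 0 at a threshold of 0.01, against 1. For unstimulated cells at 18 h relative to 1 h it was 2 with library-size scaling and 2 with the compared groups alone, against 1, as Cybc1 was called higher (0.27 and 0.21). Of the differences between 18 h and 1 h, IL-4 gave 2 at a threshold of 0.01, against 5, and IFNg added gave 2 at that threshold and 3 without both set-apart libraries, against 5. The causes were not tested. The Rac2 to Rac1 difference at 18 h was 2.30 for LPS alone and 1.53 for LPS+IFNg alone against unstimulated cells, and at 1 h -0.0982 and -0.0886, where 3 against 3 libraries cannot reach a p below 0.1. The LPS 1 h libraries alone overlapped the unstimulated 1 h ones in this ratio (exact two-sided permutation test, p = 0.2). With each library left out in turn, the members called were 4 to 5 for LPS and 4 for LPS+IFNg at 1 h, 7 and 6 at 18 h, 0 to 1 for IL-4 at 1 h and 5 to 6 at 18 h, 0 to 1 for IFNg added at 1 h and 4 at 18 h, and 1 for time without stimulus. For the differences between times they were 6 to 7 for LPS, 7 to 8 for LPS+IFNg, 2 to 4 for IL-4 and 3 to 5 for IFNg added. The ratio differences then ran from 1.72 to 1.91 at 18 h and from -0.13 to -0.10 at 1 h. Of the fold changes under other settings, 821 kept their direction and call, 20 that were not called turned their sign and stayed uncalled, 27 lost their call and 12 gained one, of which 3 had turned their sign. With a library left out the numbers were 718, 35, 62 and 1, with no sign turned in the last. Of the 64 levels per kilobase, 58 moved by over 1 SD with the principal transcript's length and 51 with library-size scaling. Counts of 9 to 79 reads limit Nox1.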
